A study of Rattus norvegicus with 7 samples.

Results

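The NMDA receptor subunit genes were examined in hippocampus and hypothalamus of rats whose diet contained DHA, docosahexaenoic acid, which is a polyunsaturated lipid component of brain membranes. The 7 members were chosen by symbol as the genes of this receptor family: Grin1, Grin2a, Grin2b, Grin2c, Grin2d, Grin3a and Grin3b. All 7 were found in both tissue tables, among 15805 symbols that the tables share. The libraries were poly-A RNA sequencing libraries of male Sprague Dawley rats, 4 of hippocampus and 3 of hypothalamus, from a study of how dietary DHA acts on the transcriptome and the DNA methylome of these regions. Every animal was 2 months old at the start and had then received DHA for 6 weeks, so the groups differ in tissue and share the diet. Libraries from animals kept on regular chow are not analysed here, and no effect of DHA is given. The labels name neither the DHA dose nor whether a hippocampus and a hypothalamus library came from the same rat. Nor do they say whether replicates of a tissue are separate animals, so the spread between them may be technical in part.

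NMDA receptors are ligand-gated cation channels that open when glutamate and a co-agonist, glycine or D-serine, are bound while the membrane is depolarized. Each channel is a tetramer that holds GluN1, the glycine-binding subunit encoded by Grin1, together with GluN2 subunits (Grin2a to Grin2d), which bind glutamate and set the kinetics and magnesium block, or with GluN3 subunits (Grin3a and Grin3b), which bind glycine. In forebrain, GluN2B prevails before birth and GluN2A joins it after birth at excitatory synapses, while GluN2D is known from diencephalon, brainstem and interneurons, and GluN2C from cerebellum and astrocytes.

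Levels are FPKM, fragments scaled to transcript length and to the total of mapped fragments, as the authors deposited them. FPKM is per length, so genes can be set side by side within a table. Summed FPKM ranged from 370020 to 391349 over the hippocampus libraries and from 443335 to 471484 over the hypothalamus libraries, and absolute sequencing depth is unknown. Replicate 1 of each tissue stood apart from the others. At loci of at least 5 FPKM in every other library, replicate 1 lay under 0.1 times the lowest other library at 286 hippocampal and 182 hypothalamic loci, against at most 11 for any other library. Of these loci, 276 and 174 carried a symbol with several loci. They include 1 locus of Grin2a and 1 of Grin2d, described where those genes come up, and results are given with and without replicate 1 where it matters.

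The tissue labels were checked against marker genes. The 6 hippocampal neuron markers found, among them Slc17a7 and Neurod6, summed to 963 to 1376 FPKM in hippocampus and 23.0 to 28.9 FPKM in hypothalamus. The 8 hypothalamic markers, among them Oxt and Hcrt, summed to 8.87 to 13.7 and 6067 to 8600 FPKM. Markers of adjoining tissue varied as well. The choroid plexus list read 34.4 FPKM in hippocampus replicate 2 and 2051 to 5914 FPKM in the other 3 libraries. In replicate 2, Grin3b had its highest hippocampal value and none of the other 6 members had its highest or lowest. Pituitary markers summed to 76.7 to 306 FPKM in hypothalamus, with Prl listed at 0 and Cga the most abundant, and to at most 1.36 FPKM in hippocampus.

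Grin1, which encodes the obligatory GluN1 subunit, was the most abundant member in both tissues. It read 136, 97.0, 104 and 79.0 FPKM in hippocampus replicates 1 to 4, with an average of 104 ± 23.9 (SD, n = 4). Its hypothalamic values were 90.2, 117 and 191 FPKM in replicates 1 to 3, averaging 133 ± 52.4 (SD, n = 3). The tissues overlapped, and the hypothalamic libraries alone spanned a 2.12-fold range. Grin1 lay above 96.3% of all symbols of the hippocampus table and 96.5% of those of the hypothalamus table.

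Grin2b and Grin2a, which encode the GluN2 subunits of most forebrain synapses, came next in hippocampus. Grin2b read 19.7, 27.9, 21.3 and 30.8 FPKM there, a mean of 24.9 ± 5.30 (SD, n = 4), and 15.6, 10.6 and 17.5 FPKM in hypothalamus, a mean of 14.5 ± 3.55 (SD, n = 3). Every hippocampus library lay above every hypothalamus library, but the highest hypothalamic value, 17.5 FPKM, was close to the lowest hippocampal one, 19.7 FPKM. Grin2a at its highest-mean locus read 23.7, 18.3, 18.0 and 17.1 FPKM in hippocampus, a mean of 19.3 ± 2.99 (SD, n = 4). In hypothalamus it read 2.92, 1.92 and 1.86 FPKM, a mean of 2.23 ± 0.593 (SD, n = 3). Grin2a was thus the member with the widest gap between tissues, and its lowest hippocampal library was far above its highest hypothalamic one. In dissected tissue, fewer cells of a type and less RNA per cell cannot be told apart.

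Grin2c, which encodes GluN2C, read 23.9, 12.9, 12.9 and 9.54 FPKM in hippocampus, a mean of 14.8 ± 6.25 (SD, n = 4). Its hypothalamic values of 8.41, 11.2 and 12.3 FPKM, with a mean of 10.6 ± 2.01 (SD, n = 3), overlapped the hippocampal ones, with the lowest library of all in hypothalamus. Hippocampus replicate 1 was high, at 2.03 times the mean of the other 3. Of 5 cerebellar markers, 4 were under 1 FPKM in every library of both tissues, Gabra6 and Cbln3 among them. The remaining marker, Cbln1, read 3.70 to 20.7 FPKM in hippocampus, highest in replicate 1, and 57.5 to 79.9 FPKM in hypothalamus. The 5 astrocyte markers summed to 603 to 747 FPKM in hippocampus and 940 to 1322 FPKM in hypothalamus. These sums are FPKM as deposited, whose totals were higher in every hypothalamus library. With every library brought to the same total, they overlap between the tissues. Within hippocampus, Gfap and Slc1a3 were highest in replicate 1, as Grin2c was, whereas Aqp4 and Gja1 were lowest there. Their part in the Grin2c values was not tested.

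Grin2d, which encodes the slowly deactivating GluN2D, read 4.99, 3.13, 2.46 and 2.35 FPKM in hippocampus, a mean of 3.23 ± 1.22 (SD, n = 4). In hypothalamus it read 11.3, 10.9 and 13.9 FPKM, a mean of 12.02 ± 1.64 (SD, n = 3). Grin3a, which encodes GluN3A, a subunit that lowers the calcium permeability of the channel, read 3.07, 3.79, 2.77 and 5.15 FPKM in hippocampus and 10.4, 9.29 and 10.4 FPKM in hypothalamus. Both genes were higher in every hypothalamus library, with no value shared between the tissues. The means of Grin3a were 3.69 ± 1.06 (SD, n = 4) and 10.01 ± 0.623 FPKM (SD, n = 3). Grin3b, the other GluN3 gene and one known from motor neurons, was the lowest member in both tissues. It read 0.237, 0.387, 0.283 and 0.179 FPKM in hippocampus and 0.812, 1.09 and 1.32 FPKM in hypothalamus. Grin3b met the minimum of a mean of 1 FPKM in a tissue only through its hypothalamic mean of 1.07 FPKM, so a higher hypothalamic level was a condition of its being compared.

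**Figure D1:**
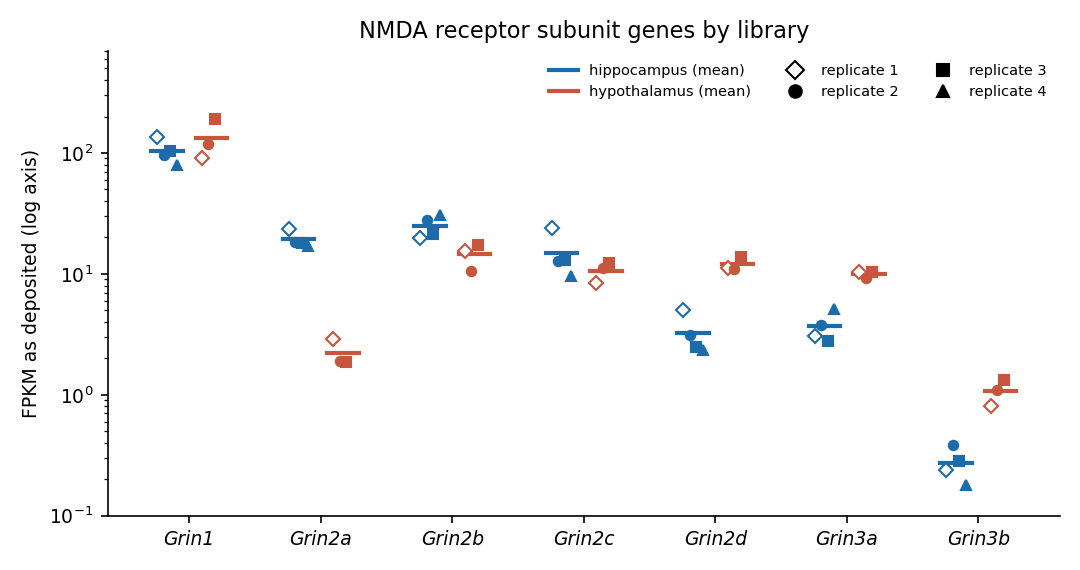
FPKM as deposited (log axis) of the 7 NMDA receptor subunit genes, at the highest-mean locus of each, in 4 hippocampus libraries (blue) and 3 hypothalamus libraries (red); points are libraries, open diamonds are replicate 1 and lines are means. Grin2a lies at 17.1 to 23.7 FPKM in hippocampus and 1.86 to 2.92 FPKM in hypothalamus, while Grin2d, Grin3a and Grin3b lie higher in hypothalamus.

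The order of the members differed between the tissues. In hippocampus it ran Grin1, Grin2b, Grin2a, Grin2c, Grin3a, Grin2d and Grin3b. Grin1 had 4.18 times the mean of Grin2b, with no overlap. Grin2b, Grin2a and Grin2c were not separated, since the ranges of neighbours overlapped, and neither were Grin3a and Grin2d. In hypothalamus the order was Grin1, Grin2b, Grin2d, Grin2c, Grin3a, Grin2a and Grin3b. There Grin1 had 9.16 times the mean of Grin2b, and the next 4 genes formed a group of 10.01 to 14.5 FPKM in which each overlapped its neighbour. Grin2a came after a gap, at a mean 4.49 times lower than that of Grin3a, and Grin3b lay below it with no overlap. These orders are descriptions, with no test.

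The tissues were then compared on a common scale. Library values were divided so that the shared symbols add up to 1000000, and differences were taken on log2(rescaled value + 1), hippocampus minus hypothalamus, with a standard error (SE) from the spread of the libraries. Each tissue comes from its own table, and locus numbers do not match between the tables, so tissue and table cannot be told apart and no test was made across them. A gene was called when the libraries of the tissues did not overlap and the difference was at least 2-fold. Over all 10736 compared symbols, every hippocampus library lay above every hypothalamus library for 28.2%, and the reverse held for 24.4%. With the 2-fold minimum, 14.5% were called higher in hippocampus and 13.4% in hypothalamus.

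Of the 7 members, 2 were called higher in hippocampus, Grin2a and Grin2b, and 2 in hypothalamus, Grin2d and Grin3a. Grin2a differed by 3.19 ± 0.22 (SE), or 9.15-fold on this scale, and Grin2b by 1.06 ± 0.24. Grin2d differed by -1.55 ± 0.24 and Grin3a by -1.10 ± 0.18. Grin3b also lay higher in every hypothalamus library, and its difference of -0.98 ± 0.16 missed the 2-fold minimum. Grin1, at -0.01 ± 0.34, and Grin2c, at 0.69 ± 0.31, overlapped between the tissues. The Grin2c difference ranged from 0.29, without replicate 1 of both tissues, to 0.86, without hippocampus replicate 4, and the tissues did not overlap in 3 of 18 settings.

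How firmly each member was placed differed. Over the values above and 17 alternatives, Grin2a and Grin2d were called in all 18, with ranges of 2.56 to 3.94 and -2.15 to -1.23. Grin3a was called in 16 and Grin2b in 12 of the 18, and both kept the libraries of the tissues apart in all 18. Settings that changed only the filter on low values had to repeat the main values, so they add nothing to these counts. Nor can a pseudocount make the libraries of a gene overlap, and leaving a library out can hardly do so. The Grin2b difference fell under 2-fold with FPKM as deposited (0.74), with upper-quartile scaling (0.90) and with median-of-ratios scaling (0.98). It also did so with a pseudocount of 5 (0.98), and without hippocampus replicate 4 (0.95) or hypothalamus replicate 2 (0.87). That of Grin3a fell under it with a pseudocount of 5, at -0.88, and without hippocampus replicate 3, at -0.998. Grin3b was called in 5 of the 16 settings that compared it. The sign of the Grin1 difference changed with the scaling and with the libraries kept, over a range of -0.39 to 0.26. Without replicate 1 of both tissues the differences of Grin2a, Grin2b, Grin2d and Grin3a were 3.28, 1.23, -1.79 and -1.001, all 4 still called, and Grin3b was called too, at -1.08. The Grin2a value then came from another hippocampal locus, described below. Over all compared symbols hippocampus took 52.0% of the calls, but 33.8% with FPKM as deposited, where the median difference of all symbols was -0.21 in place of 0.05. Set against that median, Grin2b at 0.74 stood about as far out as in the rescaled values.

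**Figure D2:**
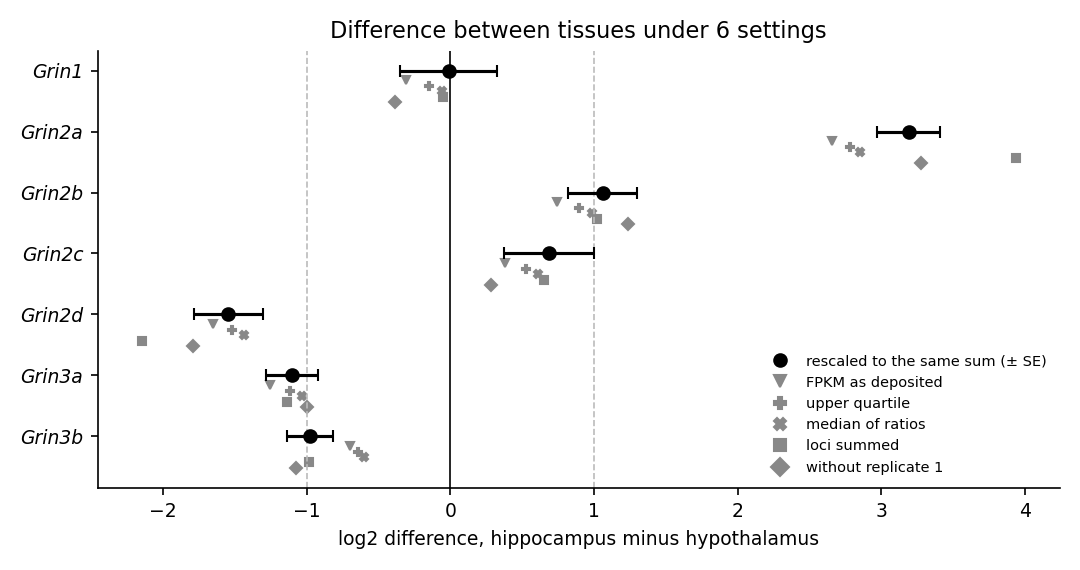
Difference between tissues in log2 units, hippocampus minus hypothalamus, for the 7 genes: black points are rescaled values with SE over 4 and 3 libraries, gray symbols are 5 alternatives, and dashed lines mark 2-fold. Grin2a lies right of 2-fold and Grin2d left of it in each setting drawn, and Grin2b lies at 0.74 to 1.23.

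The RefSeq promoter table matched 4 of the 7 members, and upstream sequence is shown for the pair that lay higher in hypothalamus together, Grin2d and Grin3a, and for Grin1, which overlapped between the tissues. The windows are the 250 bases before the RefSeq gene start in GRCr8, a different build from the rn5 named in the submitters' processing notes. They read 5′ to 3′ on the strand of the gene, and capitals mark CpG dinucleotides, the sites of the DNA methylation that the study also sequenced and that is not analysed here.
Grin2d promoter, GRCr8 chr1:105481237-105481486, minus strand: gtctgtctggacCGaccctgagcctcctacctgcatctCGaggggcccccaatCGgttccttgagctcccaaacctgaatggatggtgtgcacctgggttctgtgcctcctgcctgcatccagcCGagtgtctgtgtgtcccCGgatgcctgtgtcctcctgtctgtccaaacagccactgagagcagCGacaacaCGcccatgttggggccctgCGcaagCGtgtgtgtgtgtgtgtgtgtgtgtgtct
Grin3a promoter, GRCr8 chr5:69001559-69001808, minus strand: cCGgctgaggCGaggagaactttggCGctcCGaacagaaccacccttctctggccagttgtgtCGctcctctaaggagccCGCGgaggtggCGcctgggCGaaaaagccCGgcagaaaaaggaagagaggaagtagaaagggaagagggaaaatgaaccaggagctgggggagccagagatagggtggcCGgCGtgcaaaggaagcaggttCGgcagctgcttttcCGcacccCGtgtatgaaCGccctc
Grin1 promoter, GRCr8 chr3:28528755-28529004, minus strand: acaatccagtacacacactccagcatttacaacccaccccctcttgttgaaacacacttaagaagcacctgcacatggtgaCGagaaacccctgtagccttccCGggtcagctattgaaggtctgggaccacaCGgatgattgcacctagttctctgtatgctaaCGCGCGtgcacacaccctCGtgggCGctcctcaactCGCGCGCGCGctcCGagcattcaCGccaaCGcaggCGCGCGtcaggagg

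The Grin1 window held 19 CpG dinucleotides, that of Grin3a 16 and that of Grin2d 9, and the window of Grin2c, not printed, held 8. The median over 27457 symbols was 6, and 80.2%, 74.2%, 58.9% and 56.0% of them had fewer than Grin1, Grin3a, Grin2d and Grin2c. GC content was 57.6% for Grin1, 59.6% for Grin2c and 60.4% for Grin2d and Grin3a, against a median of 52.0%. So the windows of Grin2d and Grin3a matched in GC content and differed in CpG number. None of the 4 windows held GGGCGG, the GC box, on either strand, which 32.4% of all windows of this length did. Neither did they hold TATAAA, found in 13.1%, GCGGGGGCG, found in 2.49%, or TGACGTCA, found in 1.70%, where GGGCGG and GCGGGGGCG can overlap.

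Shares within a library do not depend on how libraries are scaled. Of the summed FPKM of the 4 Grin2 genes, Grin2a took 28.6% to 33.0% in hippocampus and 4.09% to 7.65% in hypothalamus. Grin2d took 3.93% to 6.91% in hippocampus and 29.5% to 31.5% in hypothalamus, so that Grin2a and Grin2d exchanged places. Grin2b held 27.2% to 51.5% and 30.6% to 40.8%, which overlapped. Grin2c likewise overlapped, with a mean of 23.3% ± 7.21 (SD, n = 4) and 27.2% ± 5.16 (SD, n = 3). With the highest-mean locus per gene, Grin2b had the highest mean share in both tissues, with 40.6% ± 10.3 (SD, n = 4) in hippocampus and 36.6% ± 5.33 (SD, n = 3) in hypothalamus.

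The ratio of Grin2a to Grin2b, whose balance is known to shift the decay time of synaptic currents, was 0.27, -0.61, -0.24 and -0.85 in log2 units in hippocampus replicates 1 to 4. In hypothalamus it was -2.42, -2.46 and -3.23. Every hippocampus library thus had more Grin2a per Grin2b than any hypothalamus library, though only hippocampus replicate 1 had more Grin2a than Grin2b. The 4 Grin2 genes together had 0.526 to 0.757 times the FPKM of Grin1 in hippocampus and 0.238 to 0.423 times in hypothalamus, without overlap. The summed Grin3 genes had 0.0242 to 0.0674 times the FPKM of Grin1 in hippocampus and 0.0610 to 0.124 times in hypothalamus. Those ranges overlapped at hippocampus replicate 4 and hypothalamus replicate 3. As a share of all 7 members, Grin3 transcripts made up 1.56% to 3.70% in hippocampus and 4.70% to 8.02% in hypothalamus, without overlap.

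**Figure D3:**
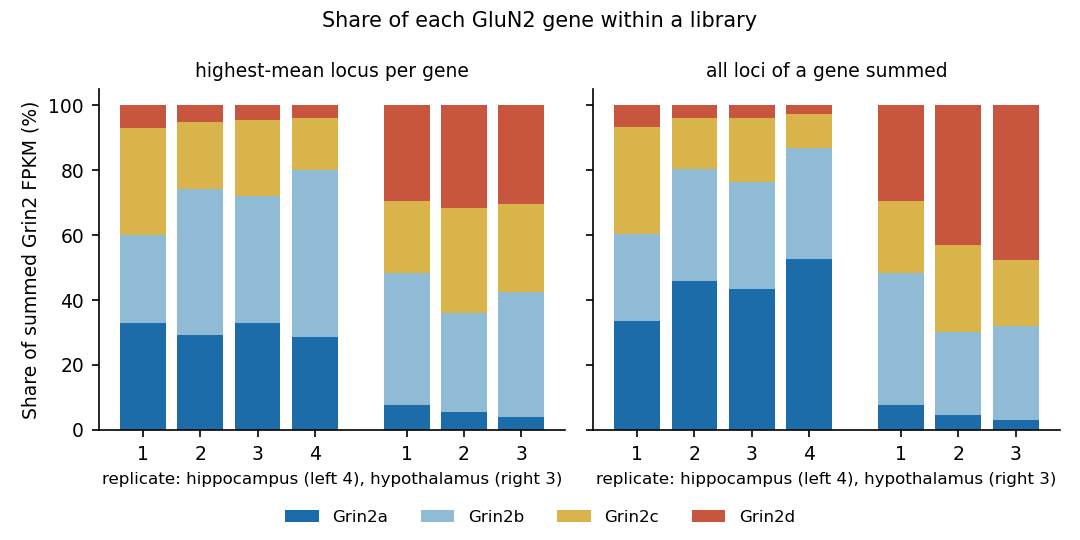
Share of each Grin2 gene in the summed Grin2 FPKM (%) of a library, with the highest-mean locus per gene (left panel) and with all loci of a gene summed (right panel). Grin2a is wide in the 4 hippocampus libraries and Grin2d in the 3 hypothalamus libraries in both panels, and summing widens Grin2a in hippocampus replicates 2 to 4.

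Both genes with the largest shift in share had more than 1 locus in a table, and this changed their values. Grin2a had 3 loci in hippocampus. The locus used above, XLOC_004007, lay among loci of the plus strand: of the nearest 20 single-locus symbols in the row order with a strand in the RefSeq table of GRCr8, 17 were on that strand. A further locus, XLOC_004897, lay among loci of the opposite strand, with 17 of 20 on minus. It read 0, 19.0, 9.91 and 30.1 FPKM in replicates 1 to 4, against 23.7, 18.3, 18.0 and 17.1 FPKM at the locus used. Replicate 1 was thus the highest library at one locus and listed at 0 at the other. The remaining locus did not exceed 0.783 FPKM. In hypothalamus Grin2a had 1 locus, among loci of the plus strand. The strand of Grin2a itself is not in that RefSeq table, so which hippocampal locus is its own transcript was not settled.

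Grin2d repeated this in hypothalamus. Its locus XLOC_002043, used above, lay among loci of the minus strand (20 of 20), which is the strand of Grin2d in GRCr8. Its other locus, XLOC_000542, lay among loci of the plus strand (20 of 20) and read 0, 6.99 and 14.9 FPKM in replicates 1 to 3. Replicate 1 was again the library listed at 0. As a check of the row order, 93.7% of the hippocampal and 93.9% of the hypothalamic single-locus symbols with a known strand lay on the strand of most of their neighbours. Whether fragments were assigned by strand is not given in the sources used here, and without that a gene and a transcript on its opposite strand cannot be told apart.

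**Figure D4:**
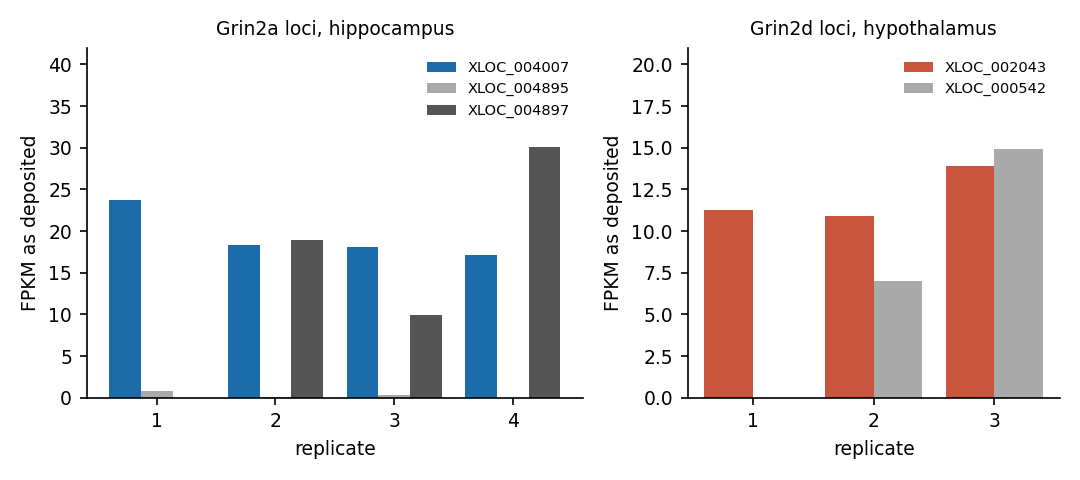
FPKM as deposited at each locus of Grin2a in hippocampus (left) and of Grin2d in hypothalamus (right), by replicate. Replicate 1 has 0 FPKM at XLOC_004897 and at XLOC_000542, where the other libraries reach 30.1 and 14.9 FPKM.

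With all loci of a symbol summed, the Grin2a share in hippocampus rose from a mean of 31.0% ± 2.27 to 43.9% ± 7.88 (SD, n = 4), with 33.5% in replicate 1 and 43.6% to 52.5% in the others. The log2 ratio of Grin2a to Grin2b in hippocampus then changed sign, from a mean of -0.36 ± 0.49 to 0.44 ± 0.13 (SD, n = 4), and all 4 libraries had more Grin2a than Grin2b. Which of these genes is the more abundant in hippocampus therefore depended on the loci counted. The higher level of Grin2a in hippocampus did not, with a difference between tissues of 3.94 in place of 3.19. Summed Grin2 FPKM relative to Grin1 in hippocampus then ranged from 0.536 to 1.14, exceeding Grin1 in replicate 4. For Grin2d the hypothalamic share went from 30.5% ± 0.997 to 40.1% ± 9.43 (SD, n = 3) and the difference between tissues from -1.55 to -2.15. The log2 ratio of Grin2d to Grin2b in hypothalamus stayed at -0.47 in replicate 1 and went from 0.04 and -0.33 to 0.76 and 0.72 in replicates 2 and 3. With replicate 1 of hippocampus left out, the highest-mean locus of Grin2a became XLOC_004897, with a mean of 19.7 FPKM, and the Grin2a difference of 3.28 given above rests on that locus. That locus lies among loci of the minus strand and the hypothalamic one among loci of the plus strand. The value is therefore not the same comparison with a library removed. Grin1, Grin2b, Grin2c, Grin3a and Grin3b had 1 locus in each table.

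The spread among replicates was next set against that of all loci of at least 1 FPKM. In hippocampus the SD of log2(FPKM + 1) was 0.32 for Grin1, 0.20 for Grin2a, 0.30 for Grin2b, 0.52 for Grin2c, 0.38 for Grin2d and 0.31 for Grin3a. Grin3b, under 1 FPKM in every hippocampus library, is left out, since its SD moves with the pseudocount. The median over 11197 loci was 0.24 and the 90th percentile 0.58, so none of these 6 members exceeded that percentile, and Grin2c came nearest. Replicate 1 read 1.46 times the mean of the other libraries at Grin1, 1.33 times at Grin2a, 2.03 times at Grin2c and 1.89 times at Grin2d, but 0.738 times at Grin2b. Without replicate 1 the SD was 0.20 for Grin1, 0.05 for Grin2a at the same locus, 0.23 for Grin2c and 0.16 for Grin2d, while that of Grin3a was 0.35, against a median of 0.19 and a 90th percentile of 0.45 over all these loci. At XLOC_004897, the Grin2a locus with the highest mean once replicate 1 is left out, the SD was 0.76. The SD of Grin3a was 0.18 with hippocampus replicate 4 left out instead. In hypothalamus the SD was 0.08 for Grin3a, 0.35 for Grin2b and 0.55 for Grin1, against a median of 0.25 and a 90th percentile of 0.57 over 11483 loci. These values rest on single libraries: that of Grin1 was 0.27 without replicate 3, and that of Grin2b was 0.11 without replicate 2. Without replicate 1 they were 0.49 for Grin1 and 0.48 for Grin2b, against a median of 0.13 and a 90th percentile of 0.38 over all these loci.

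Markers of other cells also differed between the tissues. The 6 markers of GABA neurons, among them Gad1 and Slc32a1, summed to 338 to 482 FPKM in hippocampus and 789 to 957 FPKM in hypothalamus. In rescaled values, 4 of these lay higher in every hypothalamus library, as Grin2d, Grin3a, Grin3b and 24.4% of all compared symbols did, Pvalb overlapped and Vip lay higher in every hippocampus library. The 6 thalamic markers, Tcf7l2 and Slc17a6 among them, summed to 35.7 to 50.5 FPKM in hippocampus and 62.7 to 153 FPKM in hypothalamus, highest in hypothalamus replicate 1. Without Slc17a6, which hypothalamic glutamate neurons also express, the sums overlapped, at 30.6 to 44.7 and 35.2 to 74.4 FPKM. In hypothalamus replicate 1 Grin2a was also at its highest hypothalamic value, 2.92 FPKM. Of the 4 cholinergic and motor neuron markers found, 3 were under 1 FPKM in every hippocampus library and none were so in hypothalamus. The list summed to 10.2 to 19.8 FPKM in hippocampus and 19.5 to 21.9 FPKM in hypothalamus, which overlapped. The exception in hippocampus was Chat, at 9.36 to 19.1 FPKM, against 6.18 to 9.35 FPKM in hypothalamus. Summed FPKM as deposited was also higher in every hypothalamus library for oligodendrocyte markers (3497 to 4301 in hippocampus, 5512 to 7223 in hypothalamus), microglial markers (108 to 133 and 222 to 233) and striatal markers (31.5 to 53.4 and 58.0 to 121). It was higher in every hippocampus library for cortical markers (40.8 to 69.7 and 22.0 to 29.5) and endothelial markers (77.9 to 125 and 47.5 to 69.1). As deposited, FPKM totals were higher in every hypothalamus library. With values rescaled to the same sum, the striatal sums and the sums of the 6 thalamic markers overlap between the tissues. Not every gene followed its list. In rescaled values 2 of 5 oligodendrocyte, 3 of 5 microglial and 2 of 5 striatal markers lay higher in every hypothalamus library, while Mog, Cx3cr1 and Drd1 lay higher in every hippocampus library. Of the cortical and endothelial markers, 3 of 5 and 2 of 3 lay higher in every hippocampus library, as 28.2% of all compared symbols did, and the others overlapped. The part of these cells in the values of the members was not tested.

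Partners of the receptor were examined as a list of 54 genes for scaffolds, bound signalling proteins, transport, supply and clearance of glutamate and co-agonist, and 3 other associated proteins. Of these, 51 were compared. Kif17, Lin7b and Camk2a were not analysed here, Camk2a because no hypothalamic locus had an acceptable status word in all libraries. Of the 51, 27 (52.9%) were called higher in hippocampus and 2 (3.92%) in hypothalamus, beside 14.5% and 13.4% of all compared symbols. The median difference was 1.12 for the list and 0.05 for all compared symbols. FPKM printed for partners is as deposited, while differences are in log2 units of rescaled values, so the printed pairs do not correspond exactly. Without replicate 1 of both tissues the counts were 27 and 2. Among the 33 partners with a single locus in both tables, 15 were called higher in hippocampus and 2 in hypothalamus.

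Of 14 scaffold genes, 11 were called higher in hippocampus and none in hypothalamus, beside 14.5% and 13.4% of all compared symbols. Dlg1, Dlgap3 and Dlgap4 were not called. Homer1, which links the postsynaptic scaffold to metabotropic receptors, had the largest difference of the list, 3.46 ± 0.26 (SE), with 34.4 to 48.6 FPKM in hippocampus and 3.05 to 5.32 FPKM in hypothalamus. Dlgap2, a binding partner of PSD-95, differed by 2.82 ± 0.09 and read 15.3 ± 1.53 FPKM (SD, n = 4) against 2.30 ± 0.290 FPKM (SD, n = 3). Dlg4, which encodes PSD-95 itself, the protein that binds the tails of GluN2 subunits, read 194 to 279 against 94.9 to 164 FPKM, a difference of 1.21 ± 0.24. Dlg4 was not called without replicate 1 of both tissues, at 0.93, where 10 of the 14 scaffold genes were, beside 1926 of 10724 compared symbols. It was also not called with FPKM as deposited, at 0.90, where 7 of the 14 were, beside 928 of 10736 compared symbols.

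Of 20 signalling genes bound to the receptor, 9 were called higher in hippocampus and none in hypothalamus, beside 14.5% and 13.4% of all compared symbols. Ppp3ca, a catalytic subunit of calcineurin, averaged 399 ± 30.3 FPKM (SD, n = 4) against 95.5 ± 22.3 FPKM (SD, n = 3), hippocampus higher, a difference of 2.38 ± 0.20 (SE) at the highest-mean locus. Ppp3ca had 2 loci in hippocampus and 1 in hypothalamus, and the difference was 2.96 with loci summed. Among the 3 other associated genes, of which 2 were called higher in hippocampus, Arc, an activity-regulated gene induced through NMDA receptors, read 13.1 to 25.7 and 3.07 to 5.55 FPKM, a difference of 2.31 ± 0.31. Arc had 2 hippocampal loci, and Dlg4 had 2 hypothalamic ones. The 2 RasGRF genes lay on different sides: Rasgrf2 was called higher in hippocampus, at 1.85 ± 0.17, while Rasgrf1, whose product binds GluN2B, lay higher in every hypothalamus library without reaching 2-fold, at -0.45 ± 0.08.

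The genes called higher in hypothalamus both handle co-agonists. Slc6a9 encodes the glycine transporter GlyT1, which keeps glycine low at NMDA receptors, and averaged 25.5 ± 1.81 FPKM (SD, n = 4) in the hippocampal libraries against 115 ± 32.1 FPKM (SD, n = 3), a difference of -1.83 ± 0.24 (SE). Slc7a10 encodes Asc-1, a transporter of D-serine and glycine, and read 31.5 to 39.2 against 9.81 to 16.7 FPKM, a difference of -1.23 ± 0.19. Srr, the serine racemase that makes D-serine, overlapped between the tissues, at 0.41 ± 0.13, and so did Dao, which degrades it, at -0.33 ± 0.26. Without replicate 1 of both tissues neither overlapped. Srr then lay higher in hippocampus, at 0.59, and Dao in hypothalamus, at -0.60, both under 2-fold. On the glutamate side, Slc1a1 and Slc1a2 were called higher in hippocampus, at 1.97 and 1.89, whereas the glial transporter gene Slc1a3 overlapped, at -0.40 ± 0.18. With loci summed, the differences were 2.64 for Slc1a1, 1.51 for Slc1a2 and 0.03 for Slc1a3. Slc1a3 lay higher in every hypothalamus library without replicate 1 of both tissues, at -0.50. It also did so with FPKM as deposited, at -0.69, and both values were under 2-fold. Of the 10 supply and clearance genes, 3 were called toward hippocampus and 2 toward hypothalamus, beside 14.5% and 13.4% of all compared symbols. With FPKM as deposited it was 2 each way, beside 928 and 1819 of 10736 compared symbols. The 3 and 2 genes are 30% and 20% of the list, too few to set apart from the shares over all symbols. Of the 5 astrocyte markers in rescaled values, Aqp4 and Aldh1l1 lay higher in every hypothalamus library, as 24.4% of all compared symbols did, and Gfap, Slc1a3 and Gja1 overlapped. Their part in the values of Slc6a9 was not tested.

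**Figure D5:**
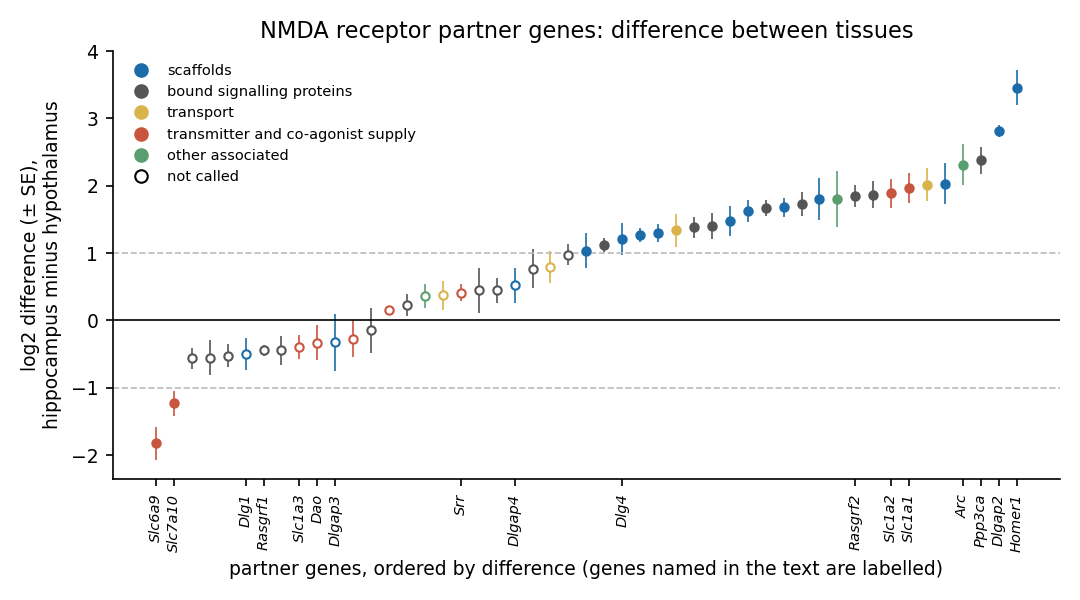
Difference between tissues in log2 units (± SE over 4 and 3 libraries), hippocampus minus hypothalamus, of 49 partner genes, colored by role, with those named in the text labelled; filled points are called and dashed lines mark 2-fold. The points of 25 drawn genes are called on the hippocampal side, Homer1 furthest at 3.46, and 2 on the hypothalamic side, Slc6a9 and Slc7a10.

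For each member, symbols with the most similar pattern were sought among 8892 symbols with a single locus in both tables. Likeness was the root mean square difference of log2(rescaled value + 1) over the 7 libraries, each gene centred on its own mean. The libraries share the separation of the tissues and their tables, so likeness in large part restates a similar tissue difference. Among the nearest symbols were Tnk2 and Sgta to Grin1, Tomm7 to Grin2a, Tph2 and Asb1 to Grin2b, and Mrpl53 and Wdr46 to Grin2c. To Grin2d they were Zfp428 and Nkain4, to Grin3a Letm2 and Fam103a1, and to Grin3b Cog1 and RGD735029. The distances of these symbols ran from 0.08 for Tph2 to 0.14 for Wdr46, where the median over all candidates lay between 0.58 for Grin1 and 1.61 for Grin2a. The symbols were picked for the smallest distances, so lying under that median was fixed in advance. Tph2 is low, with means of 1.29 FPKM in hippocampus and 0.507 FPKM in hypothalamus.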

How the data were processed

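The authors deposited FPKM per locus, separately for each tissue, each value with a status word. The submitters' processing notes name TopHat, TopHat2, Bowtie, Bowtie2, Cufflinks and Cuffdiff and the build rn5, without roles or versions. The annotation, the strand setting and the normalization between libraries are not given in the sources used here. Of 10839 locus numbers found in both tables, 58 carried the same symbol, so tables were joined by symbol. Loci lacking the status OK in 1 or more libraries (86 and 24) were dropped, and the highest-mean locus stood for a symbol. The comparison took symbols whose mean reached 1 FPKM in either tissue, with a pseudocount of 1. A limma test planned for jointly normalized tables was not run. Named genes are the members, all marker genes, the 5 called partners with the largest difference in each direction (2 existed in hypothalamus) and the 2 nearest symbols per member; further partners were named after their values were seen, and some genes that the rule picks are not reported here. The members and lists were chosen with earlier results of these data known. Alternatives were other scalings, pseudocounts of 0.1 and 5, filters, summed loci and each library left out. Python 3.11.15, numpy 2.4.6 and pandas 2.3.3 were used.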

Additional observations from a re-analysis of the deposited data

How the results depend on the processing

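The counts of 2 members called higher in each tissue depended on settings near the 2-fold limit. In hippocampus the count was 1 with FPKM as deposited, with upper-quartile and median-of-ratios scaling and with a pseudocount of 5, Grin2b being lost each time, and it was 1 to 2 with a library left out (1 without hippocampus replicate 4 or hypothalamus replicate 2). In hypothalamus it was 1 with a pseudocount of 5 and 1 to 3 with a library left out: 1 without hippocampus replicate 3, and 3, with Grin3b, without hippocampus replicate 2 or hypothalamus replicate 1. It was 3, again with Grin3b, with a pseudocount of 0.1 and with scaling on single-locus symbols. Grin3b was not compared at a minimum of 5 FPKM or without hypothalamus replicate 3. The partner counts were 26 to 28 and 2 to 2 with a library left out, and 20 to 28 and 2 under the other settings. The log2 ratio of Grin2a to Grin2b in hippocampus was 0.44 with loci summed in place of -0.36, since summing adds 2 further loci to Grin2a and none to Grin2b, and -0.56 to -0.19 with a library left out; in hypothalamus it was -2.85 to -2.44 with a library left out. Calls over all symbols toward hippocampus numbered 1560, and 928 with FPKM as deposited. Scaling on single-locus symbols, chosen after seeing the data, moved the median difference of all symbols from 0.05 to 0.16. No paired analysis was possible because the comparison of separately made tables comes from no test and the labels do not tie libraries of the tissues to the same rat. Depth is unknown, so counting error at Grin3b could not be given.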
